A study of Mus musculus with 18 samples.

Results

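The response of muscle to a Lewis lung carcinoma (LLC) tumor was measured in 6 of the 18 samples of a study of cachexia, the wasting of muscle and fat stores in patients and animals with cancer. The 3 LLC tumor-bearing samples and the 3 LLC control samples were taken as a group of their own by their titles, which also give each sample a letter, A, B or C. All were tibialis anterior (TA) muscles of male C57/B6 mice, flash frozen at sacrifice. The tumor-bearing mice had been injected with LLC cells, a line grown from a lung tumor of a C57BL mouse, and the controls bore no tumor. The labels used here do not give the injection site, the days between injection and sacrifice or the age of the mice, nor do they state whether each sample is a different mouse, so p-values measure the spread between these samples. The rest of the series is a C26 model (colon carcinoma cells injected into CD2F1 mice) and a KPP model (tumors induced with tamoxifen in C57/B6 mice), each with 3 tumor-bearing and 3 control samples.

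The assay was the nCounter mouse inflammation panel, in which barcoded probes hybridised to each transcript are counted directly, and 100 ng of total RNA was loaded for each sample. Of 254 genes, 6 are housekeeping genes and 248 are panel genes. In the LLC samples every gene value under 20 had been written as 20, so a value of 20 is an upper bound and is called the floor below. Of the panel genes 116 were above the floor in all 6 samples, 105 were at the floor in all 6, and 129 were above it in at least 3 samples and were tested. The counts behind the values above the floor summed to between 40103 (tumor-bearing B) and 102841 (tumor-bearing A), and the counting error of a value of 100 lay between 7.76% and 11.59%. The 6 housekeeping genes have a geometric mean of 591.2 in every LLC sample, so the values were read as scaled to them. Their average was thus fixed in advance and cannot show that they were stable. Each of the 6 overlapped between the groups, with log2 fold changes from -0.17 (Gusb) to 0.26 (Hprt). Of the 5 muscle fiber genes measured, Mef2c stood at 1700 to 2991 and Hspb1 at 1147 to 2036, while Myl2, the regulatory light chain of slow and cardiac myosin, stood at 24.6 to 244.7. All 6 genes of the T cell list were at the floor in every sample.

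Cachectic muscle receives signals from the tumor and from the host's own immune response, among them cytokines of the IL-6 family, which act through their receptors on the STAT3 and C/EBP beta transcription factors. Muscle also holds resident macrophages and recruits monocytes from the blood by chemokines. Macrophages exposed to the type 2 cytokines IL-4 and IL-13 take up a state called alternative activation, for which Retnla, Chi3l3, Mrc1 and Arg1 are standard markers in the mouse.

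The comparison of tumor-bearing with control muscle asked which inflammation genes differ in mice carrying LLC tumors. The alternative activation marker Retnla, H2-Eb1 of the antigen presentation list and the monocyte receptor Ccr2 rose. So did the IL-6 receptor Il6ra, the prostacyclin receptor Ptgir and the transcription factor Cebpb. The rises were 0.64 to 1.00 on the log2(value + 1) scale, on which all fold changes here are given. Chi3l3, another alternative activation marker, and the interferon regulatory factor Irf5 fell. Chi3l3 fell by 1.95 and Irf5 fell by 1.25. These 8 genes of 129, or 6.20%, passed limma's test at a Benjamini-Hochberg adjusted p of 0.05 (6 higher, 4.65%, and 2 lower, 1.55%), and before adjustment 26 genes were below 0.05. The groups of 3 did not overlap in 35 genes, 27.1% of those tested, of which 23 (17.8%) were higher and 12 (9.30%) lower in the tumor-bearing samples. The median log2 fold change of all 129 genes was 0.07, with 77 above and 52 below 0, and 3 genes went beyond 1 in either direction.

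Adjusted p was between 0.0445 and 0.0489 for all but Chi3l3, so these 7 calls lay close to the threshold. When any of control A, B or C was left out Chi3l3 alone passed. Without tumor-bearing A there were 7 calls, without tumor-bearing B 2 and without tumor-bearing C 14. Chi3l3 was also the single call when the samples were scaled without Gapdh and Pgk1, by median centring or by quantile normalization, so that the split of 6 higher and 2 lower became 0 and 1. No direction of the 8 genes changed in any of these settings. The tumor-bearing samples varied more among themselves than the controls did, with a median SD over the 129 genes of 0.25 against 0.14 (log2, n = 3 each).

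**Figure D1:**
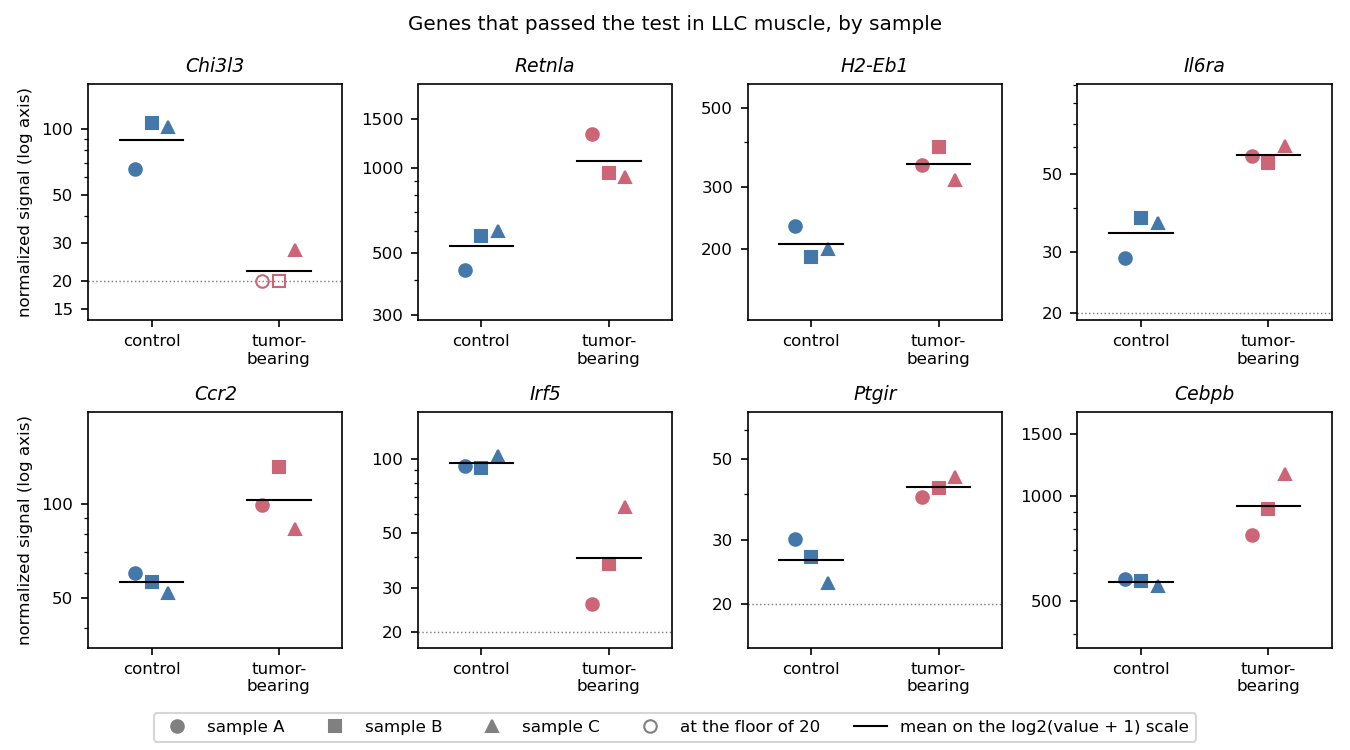
Normalized signal (log axis) of the 8 genes that passed the test, in control (blue) and tumor-bearing (red) LLC muscle; each symbol is 1 sample, open symbols are at the floor of 20 (dotted line), and bars are means on the log2(value + 1) scale. In all 8 panels the 3 tumor-bearing samples lie wholly above or wholly below the 3 controls.

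Both genes at the extremes of the list of alternatively activated macrophage markers code for proteins that such macrophages secrete. Their promoters are shown because the genes share a known inducer and moved in opposite directions. The sequences are the 250 bases before the start of the gene, on the strand of the gene, from RefSeq on GRCm38.p6: Retnla at chr16:48842359-48842608 (plus strand) and Chi3l3, now named Chil3, at chr3:106167565-106167814 (minus strand). Capitals mark matches on either strand to the letters TTNNGNAA (a C/EBP element), TTCNNNGAA (a STAT element), TTCNNNNGAA (the wider spacing bound by STAT6) and GAAANNGAA (an IRF element).
Retnla: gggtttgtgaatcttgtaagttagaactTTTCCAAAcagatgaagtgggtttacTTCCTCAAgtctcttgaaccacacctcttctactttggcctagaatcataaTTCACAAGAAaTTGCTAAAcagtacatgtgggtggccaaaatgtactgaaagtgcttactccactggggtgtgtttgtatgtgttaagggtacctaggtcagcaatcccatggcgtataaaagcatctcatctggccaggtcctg
Chi3l3: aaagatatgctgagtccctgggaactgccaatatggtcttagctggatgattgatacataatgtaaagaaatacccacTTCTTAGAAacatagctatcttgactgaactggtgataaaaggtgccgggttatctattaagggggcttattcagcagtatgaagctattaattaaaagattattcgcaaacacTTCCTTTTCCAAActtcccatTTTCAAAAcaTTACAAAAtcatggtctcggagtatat
The Retnla window held 1 STAT6 match, at bases 106 to 115, and C/EBP matches at 29 to 36, 55 to 62 and 117 to 124. The Chi3l3 window held no STAT6 match, 1 STAT match at bases 79 to 87, C/EBP matches at 198 to 205, 214 to 221 and 224 to 231, and an IRF match at 193 to 201 that overlaps the first of them. Of 32851 RefSeq promoter windows of the same length, 36.8% held the C/EBP letters, 7.02% the STAT letters, 5.85% the STAT6 letters and 7.13% the IRF letters. A match describes the letters only.

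Retnla codes for RELM alpha, a small secreted protein made by alternatively activated macrophages; its name comes from its resistin-like sequence. Its values were 434, 575 and 597 in controls A, B and C and 1323, 959.8 and 931 in tumor-bearing A, B and C. Every tumor-bearing sample was above every control, and tumor-bearing A was the highest. The log2 fold change was 1.00 (SE 0.20, limma adjusted p = 0.0445), and means were 535 ± 88.4 in controls and 1071 ± 218 in tumor-bearing samples (SD, n = 3 each).

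Chi3l3 codes for Ym1, a chitinase-like lectin that is also a marker of alternative activation. It stood at 65.5, 107 and 102 in the controls, and in tumor-bearing muscle at 20, 20 and 27.8. Tumor-bearing A and B were at the floor, so the log2 fold change of -1.95 (SE 0.23, limma adjusted p = 0.00318) is a lower bound of the size of the fall. The adjusted p stayed at 0.0343 or below with any 1 of the 6 samples left out. It was 0.164 (SE 0.26) when all 248 genes were tested, 105 of them at the floor in all 6 samples. It was 0.0641 with the floor values set to 10, and 0.945 in a fit that pooled the spread with the other 2 models. Over all the alternatives it ran from 0.000192 to 0.945.

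The other measured markers of alternative activation had positive fold changes that did not pass. Cd163, the scavenger receptor for hemoglobin and haptoglobin on resident macrophages, stood at 38.8, 28.1 and 32.1 in controls and at 82.0, 71.2 and 42.3 in tumor-bearing samples (0.92, limma adjusted p = 0.0746). Ccl24, a chemokine that attracts eosinophils, stood at 27.4, 20 and 33.2 against 74.1, 51.1 and 33.8 (0.91, limma adjusted p = 0.109), with control B at the floor. Mrc1, the mannose receptor of resident macrophages, stood at 112, 86.6 and 93.2 against 183, 134 and 121 (0.56, limma adjusted p = 0.124). None of the 3 genes overlapped between groups, and in each of them tumor-bearing A was highest and tumor-bearing C lowest of its group. Arg1 and Ccl17 were at the floor in all samples. Of 5 tested genes on this list of 7, 4 were wholly higher and Chi3l3 wholly lower, beside 17.8% and 9.30% of all tested genes. The median log2 fold change was 0.91 against 0.07 for all tested genes. The list was chosen with earlier results of these data known, so no conclusion is drawn from these shares or this median.

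**Figure D2:**
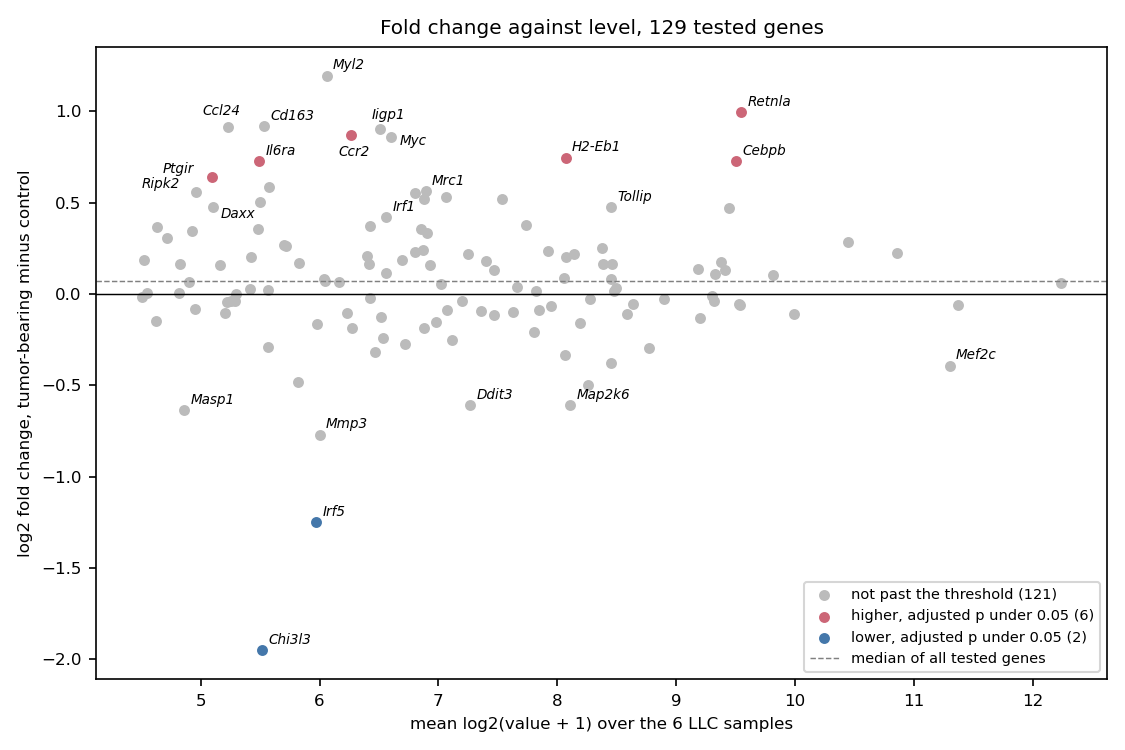
Log2 fold change (tumor-bearing minus control) of the 129 tested genes against their mean log2(value + 1) over the 6 LLC samples; red and blue points passed limma's test at an adjusted p of 0.05, higher and lower. Chi3l3 and Irf5 are the lowest 2 points, and Myl2, whose groups overlap, is the highest.

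The transcripts of the monocyte and macrophage list leaned toward tumor-bearing muscle, with 1 call, beside 4.65% called higher over all tested genes. Cd163 and Mrc1 are also on the alternative activation list. Of macrophage genes not on this list, Chi3l3 and Irf5 fell by 1.95 and 1.25, while Retnla and Ccl24 had positive fold changes. Of 14 genes on the list 10 were tested, all 10 had a positive fold change (9 with median centring or without tumor-bearing A), and the median was 0.44. Quantile normalization gave a median of 0.26 and median centring 0.29. In 6 of the 10 the tumor-bearing samples were wholly higher, where 17.8% of all tested genes were. This list too was chosen with earlier results of these data known, so no conclusion is drawn from that share. The gap was narrow in C1qa and Tlr4, with a highest control of 103.6 and 45.44 and a lowest tumor-bearing value of 104.85 and 45.7. The summed level of the list was 692 to 752 in the controls and 851 to 1176 in the tumor-bearing samples. In bulk muscle more macrophages and more of these transcripts per cell cannot be told apart. The part of macrophage number in the values of Retnla, Ccr2 and H2-Eb1 was not tested.

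Ccr2, the receptor by which blood monocytes follow the chemokine Ccl2 into tissue, was the macrophage list's call. It stood at 60.2, 56.2 and 51.8 in the controls and at 99.5, 132 and 83.3 in tumor-bearing samples, with no overlap. The fold change was 0.87 (SE 0.19, limma adjusted p = 0.0445). Its ligand Ccl2 stood at 24.1 to 29.3 against 25.3 to 38.6 and did overlap (0.35, limma adjusted p = 0.358).

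The complement subunits C1qa and C1qb, which tissue macrophages produce, had fold changes of 0.56 and 0.52 (limma adjusted p = 0.277 and 0.271). C1qa was 73.5, 99.5 and 104 in the controls and 200.1, 105 and 116 in the tumor-bearing samples, so that the gap between the groups was narrow and tumor-bearing A stood far above the rest. Tyrobp, the signaling adaptor of myeloid receptors, stood at 82.9 to 119 against 125 to 133 (0.36), and Tlr4, the receptor for bacterial lipopolysaccharide, at 32.8 to 45.4 against 45.7 to 56.7 (0.36). Itgb2, the common leukocyte integrin chain (0.26), and C3ar1, the C3a receptor (0.17), overlapped between the groups. Trem2, Cd86 and Tlr7 were at the floor in all samples.

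H2-Eb1 codes for a beta chain of the class II molecules, a family that presents antigen to helper T cells. Only the transcript was measured, so no amount of class II protein can be read from it. The promoter of H2-Eb1 is printed because class II genes are known for a conserved upstream CCAAT element, the Y box, that binds NF-Y. The 250 bases before its start lie at chr17:34305617-34305866 (plus strand, GRCm38.p6, RefSeq), with CCAAT or its reverse complement in capitals.
H2-Eb1: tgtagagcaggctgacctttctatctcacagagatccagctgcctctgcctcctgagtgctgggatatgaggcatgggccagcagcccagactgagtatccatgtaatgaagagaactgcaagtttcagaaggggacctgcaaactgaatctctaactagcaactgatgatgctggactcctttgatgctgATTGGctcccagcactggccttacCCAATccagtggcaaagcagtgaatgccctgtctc
The window held 2 matches, ATTGG at bases 192 to 196 and CCAAT at 216 to 220, and 33.8% of all windows held at least 1. H2-Eb1 stood at 233, 189.6 and 199.9 in the controls and at 345, 388 and 313 in the tumor-bearing samples. All tumor-bearing values were above all control values, and the fold change was 0.75 (SE 0.15, limma adjusted p = 0.0445). The other 3 genes of the antigen presentation list, H2-Ea-ps, Cd40 and Cd86, were at the floor throughout, and so were the T cell genes.

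Among 13 genes of acute phase and IL-6 reception, 8 were tested and 2 rose, Il6ra and Cebpb. Over all tested genes 4.65% rose. The list's median was 0.21, with 5 genes above and 3 below 0. It was 0.07 with median centring, and from 0.13 to 0.39 with 1 sample left out. Il6 itself was at the floor in all 6 samples. Il6ra, the ligand-binding chain of the IL-6 receptor, stood at 28.7, 37.5 and 36.3 in the controls and at 56.7, 53.8 and 60.4 in tumor-bearing samples (0.73, SE 0.15, limma adjusted p = 0.0445). The groups were well apart, though these levels rest on 32 to 94 counts per sample, with a counting error of up to 17.7%.

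Cebpb, the C/EBP beta transcription factor of the acute phase response, is also induced in wasting muscle. It stood at 575, 568 and 550.1 in the controls and at 769, 918 and 1155 in tumor-bearing samples (0.73, SE 0.17, limma adjusted p = 0.0489). The controls lay within a narrow band and the tumor-bearing samples were spread above it, with C the highest. Stat3, which carries the signal of the IL-6 receptor, stood at 337, 296 and 283 against 376, 285 and 443, and its groups overlapped (0.25, limma adjusted p = 0.514). Bcl2l1, a survival gene that STAT3 induces, stood at 73.6 to 75.5 against 82.0, 100.2 and 110.3, without overlap (0.37, limma adjusted p = 0.217).

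**Figure D3:**
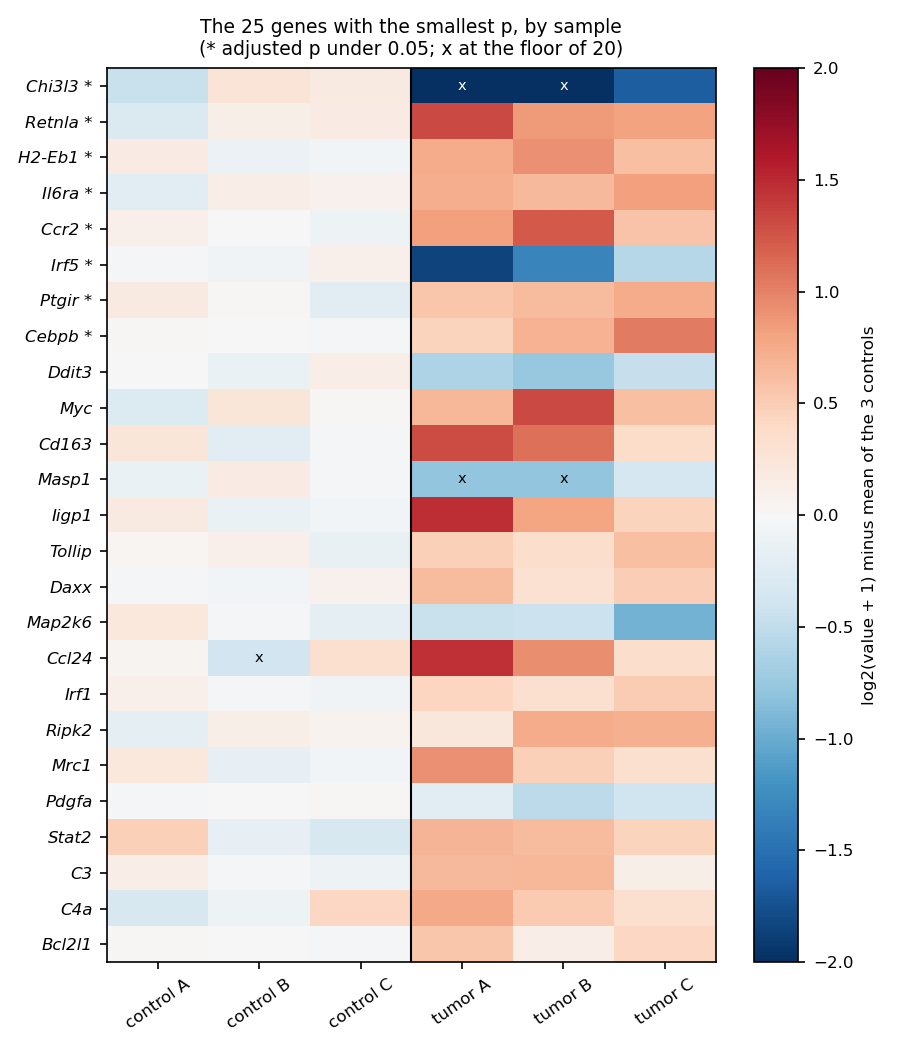
Log2(value + 1) of each LLC sample minus the mean of the 3 controls, for the 25 genes with the smallest p; color runs from -2 (blue) to 2 (red), and stars mark genes that passed. Chi3l3 and Irf5 are the darkest blue rows, and tumor-bearing A is darkest for Retnla, Cd163, Iigp1 and Ccl24.

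Of 18 interferon-stimulated genes and their factors 11 were tested, 8 with a positive and 3 with a negative fold change, and the median was 0.16 (0.01 with median centring or quantile normalization). Irf5, a factor that drives inflammatory cytokine genes in macrophages, was the list's call. It was lower, beside 1.55% called lower over all tested genes. It stood at 93.6, 91.3 and 103 in the controls and at 25.9, 37.6 and 64.0 in tumor-bearing samples, so the 3 tumor-bearing values were spread widely but all lay below the controls. The fold change was -1.25 (SE 0.29, limma adjusted p = 0.0489).

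Another 4 members had positive fold changes that missed the threshold, and Ifi27l2a, Ifit2, Mx1, Ifit3 and Oas1a lay between -0.09 and 0.16. Iigp1, a GTPase that interferon gamma induces against intracellular parasites, stood at 74.9, 59.7 and 63.2 against 184, 114 and 89.4 (0.90, limma adjusted p = 0.0792). Irf1, an early interferon response factor, stood at 76.7 to 86.9 against 101 to 115 (0.42, limma adjusted p = 0.109). Irf7, the factor of the late type I interferon response, was at the floor in controls B and C and at 24.2 to 32.3 in tumor-bearing samples (0.37, limma adjusted p = 0.233). The groups did not overlap in any of the 3. Of the list's 11 tested genes these 3 were wholly higher and Irf5 wholly lower, beside 17.8% and 9.30% of all tested genes. Stat2, which overlapped, had a fold change of 0.58. Ifng, Ifna1 and Ifnb1 were at the floor in all samples.

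Of 17 genes of prostanoid and leukotriene enzymes and receptors 5 were tested, and 1 was called higher, beside 4.65% of all tested genes. The call was Ptgir, the receptor for prostacyclin on vessel walls and platelets. It stood at 30.1, 26.9 and 22.8 in the controls and at 39.2, 41.7 and 44.7 in tumor-bearing samples (0.64, SE 0.15, limma adjusted p = 0.0489). The groups were apart by more than their own spread, but the levels rest on 22 to 65 counts, and Ptgir lost its call when any of the 6 samples was left out. Ptgs2, the inducible cyclooxygenase, stood at 56.8 to 72.5 against 20, 59.2 and 85.7, with tumor-bearing A at the floor (-0.48; 0.11 without that sample). The list's median was 0.01, and it turned to -0.05 when Gapdh and Pgk1 were left out of the scaling and to -0.14 with median centring.

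The 3 endothelial genes had a median of 0.52. Beside Ptgir these were Flt1, a receptor for vascular endothelial growth factor (207, 189.6 and 166 against 265, 184 and 292; 0.38), and Ccl21a, a chemokine of lymphatic vessels (164, 143 and 156 against 320.03, 106 and 319.96; 0.52). In both tumor-bearing B lay within or below the range of the controls. Without that sample Ccl21a had a fold change of 1.05 and passed (limma adjusted p = 0.0202), and over the alternatives its adjusted p reached 1. It had a fold change of 0.26 without tumor-bearing A or without C (limma adjusted p = 0.757 and 0.801), where the median of the 3 endothelial genes was 0.31 and 0.26.

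Immediate early and stress transcription factors were mixed. Of 13 genes 11 were tested, 8 above and 3 below 0, and 3 were wholly higher and 2 wholly lower, beside 17.8% and 9.30% of all tested genes. Ddit3, the CHOP factor of the unfolded protein response, was the uncalled gene nearest the threshold, at 188, 173 and 208 in the controls and 124, 112 and 138 in tumor-bearing samples (-0.61, SE 0.15, limma adjusted p = 0.0503). Its groups were clearly apart, and it passed with a pseudocount of 20 (limma adjusted p = 0.0416). Over 18 alternatives its adjusted p ran from 0.0256 to 0.945. Myc, a factor of growth and ribosome synthesis, stood at 58.8, 84.3 and 72.5 against 113, 179 and 109 (0.86, limma adjusted p = 0.0707), and its partner Max at 44.1 to 50.8 against 55.5 to 59.1 (0.27, limma adjusted p = 0.306). The NRF2 gene Nfe2l2, the factor of the oxidative stress response, stood at 322 to 340.2 against 363 to 380.3 (0.16), while Mafg, a small partner of NRF2, stood at 89.0 to 107 against 72.4 to 84.7 (-0.32). Neither of these passed.

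**Figure D4:**
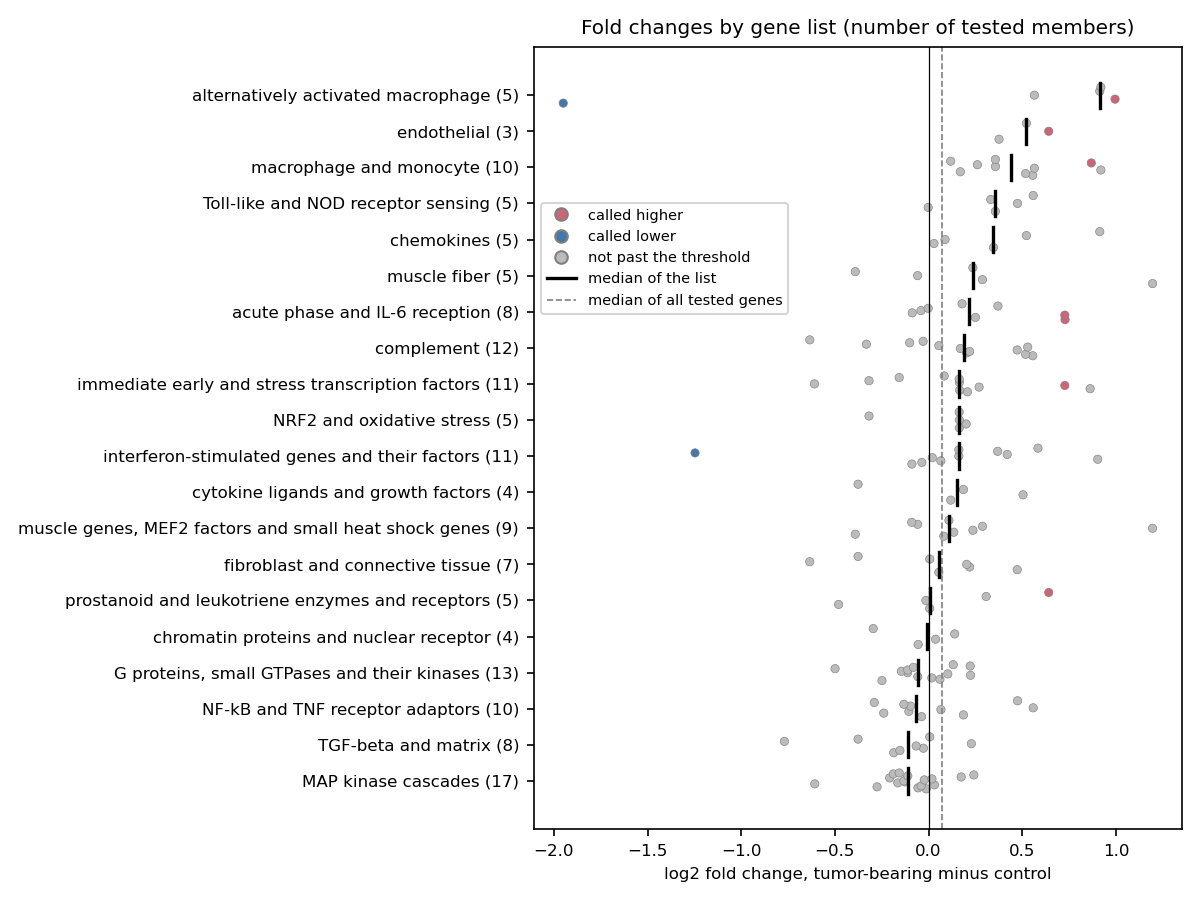
Log2 fold changes of the tested genes in each list with at least 3 tested members (number in brackets); a gene may be in several lists, thick bars are list medians, and the dashed line is the median of all 129 tested genes. The alternatively activated macrophage list spans from Chi3l3 at -1.95 to Retnla at 1.00, and the MAP kinase list sits mostly below 0.

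No gene of the complement list passed. Of 20 genes 12 were tested, 8 above and 4 below 0, with a median of 0.19 (0.04 with median centring and 0.05 with quantile normalization). C3, the protein on which all complement pathways meet, stood at 645, 578 and 548 against 923, 930.2 and 638 (0.47, limma adjusted p = 0.188). C4a stood at 88.2, 103 and 148 against 187, 159 and 138 (0.53, limma adjusted p = 0.217), and signal from its close copy C4b may not be separated by the probe. In C3 and C4a the groups overlapped in 1 tumor-bearing sample, C. Masp1, a protease of the lectin pathway, stood at 32.1, 39.8 and 34.2 against 20, 20 and 27.8 (-0.63, limma adjusted p = 0.0746), with tumor-bearing A and B at the floor, so that the size is a lower bound. Cd55, which protects cells from complement, was also wholly lower (282 to 325 against 187 to 271; -0.33).

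Cfd, or adipsin, a complement protease made mainly by fat cells, was the single adipocyte marker. It stood at 297, 623 and 602 in the controls and at 1164, 528 and 170.2 in the tumor-bearing samples. The tumor-bearing samples thus reached both above and below every control, and the fold change of -0.03 (SE 0.63) became 0.70 without tumor-bearing C and 0.16 and 0.13 without controls B and C.

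Of 16 genes of Toll-like and NOD receptor sensing 5 were tested, 4 of them above 0, with a median of 0.36 and no call. Quantile normalization gave a median of 0.26 and median centring 0.21. Ripk2, the kinase through which the NOD receptors signal, stood at 21.4, 26.9 and 25.9 against 28.9, 41.7 and 41.1 (0.56, limma adjusted p = 0.113). Tollip, an adaptor that restrains Toll-like receptor signaling, stood at 268 to 317 against 378 to 452 (0.47, limma adjusted p = 0.0984). Neither overlapped, and Nod1, a sensor of bacterial cell wall fragments, did (0.33). In the 10 tested genes of the NF-kB and TNF receptor list, 4 were above and 6 below 0, with a median of -0.07 and no call. The median was -0.22 with median centring and 0.02 without tumor-bearing C, where 7 were above and 3 below 0. Daxx, a death receptor adaptor and histone chaperone, was wholly higher (26.9 to 30.04 against 34.95 to 44.0; 0.47, limma adjusted p = 0.0984).

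Of 21 MAP kinase cascade genes 17 were tested, 13 of them below 0 and none past the threshold. Their median was -0.11, between -0.26 and -0.17 with the other 3 scalings. Without tumor-bearing C 8 genes were above and 9 below 0 (median -0.03), and 7 were above and 10 below without tumor-bearing B (-0.02) or control A (-0.08). Map2k6, a kinase that activates p38, stood at 392, 335 and 297 in the controls and at 249.5, 251 and 175 in tumor-bearing samples, without overlap (-0.61, limma adjusted p = 0.107). Shc1, an adaptor between receptors and Ras, was the other gene of the list without overlap (98.9 to 129 against 93.4 to 96.8, fold change -0.28). These 2 of 17 tested genes were wholly lower, beside 9.30% of all tested genes. Outside this list Prkca, a conventional protein kinase C, and Gnaq, a G protein subunit, were also wholly lower (-0.50 and -0.25, limma adjusted p = 0.271 and 0.415). In Prkca tumor-bearing C, at 176, lay far below the other two, at 298 and 321.

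None of the 9 tested genes of muscle, MEF2 factors and small heat shock proteins passed, and their median of 0.11 turned to -0.04 and -0.07 with median centring and quantile normalization. Mef2c, a transcription factor of muscle differentiation, stood at 2991, 2815 and 2869 in the controls and at 2792, 2253 and 1700.0 in tumor-bearing samples (-0.39, limma adjusted p = 0.293). Hdac4, a deacetylase that represses MEF2 factors and responds to denervation, stood at 246, 206 and 218 against 253, 266 and 268 (0.24, limma adjusted p = 0.388). Both were without overlap, in opposite directions. Hspb1, a small heat shock protein of the contractile apparatus, overlapped (0.29).

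Myl2 had the highest fold change of all tested genes, 1.20 (SE 0.63, limma adjusted p = 0.335), and did not pass. It stood at 94.2, 24.6 and 34.2 in the controls and at 245, 82.0 and 49.5 in the tumor-bearing samples. In each group sample A stood far above the others, and the groups overlapped. Among 9 genes of TGF-beta signaling and matrix, 8 were tested, 6 of them below 0, and none passed. Pdgfa, a growth factor for fibroblasts, stood at 389.6 to 405 against 277 to 343 (-0.38, limma adjusted p = 0.171). Mmp3, a matrix protease, was at the floor in tumor-bearing A and at 64.5 and 84.5 in B and C, against 60.8 to 96.3 in the controls (-0.77, limma adjusted p = 0.427).

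Most secreted signals of the panel were at the floor. Of 30 cytokine and growth factor ligands 26 were at the floor in all 6 samples, Tnf, Il6 and Il10 among them, and of 19 chemokines 13 were. A gene at the floor had at most 14.9 to 33.2 counts, depending on the sample, so its level was not measurable here and no difference can be read from it. The 5 chemokines tested all had positive fold changes (3 of 5 with median centring), with a median of 0.35 and no call. No gene of the neutrophil list was above the floor in 3 samples.

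The same contrast was set against the C26 and KPP models by testing the difference between fold changes in 1 fit of all 18 samples. The values of those models were scaled separately. They run down to 1, with 730 of 1524 gene values under 20 in C26 and 554 in KPP, while LLC gene values stop at 20. Only fold changes within a model are therefore set side by side. The part of the separate scaling and of the LLC floor in the differences was not tested. In C26, Stat3, Il6ra, Cebpb, C3 and C4a had lower means in the samples labelled tumor-bearing. Whether the C26 group labels are right could not be checked from the values, and the sign of every C26 fold change, and the size and sign of every difference from C26, rest on them. Of 124 genes above 20 in both models, 30 (24.2%) differed between LLC and C26, 21 higher and 9 lower in LLC. Of 127 genes, 1 (0.787%) differed between LLC and KPP.

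Of the 8 genes called in LLC, 4 differed from C26, beside 24.2% of the 124 genes tested. Chi3l3 was not tested there because a single C26 sample was above 20. The LLC values that picked the 8 genes also enter the difference, so no conclusion is drawn from this count. Irf5, lower in LLC tumor-bearing muscle, stood at 49.0, 13.1 and 13.5 in C26 controls and at 67.4, 148 and 135 in C26 tumor-bearing samples (2.36 in C26; difference -3.61, SE 0.78, limma adjusted p = 0.00748). Il6ra had a fold change of -1.66 in C26 (difference 2.39, SE 0.68, limma adjusted p = 0.0263). Cebpb stood at -0.65 in C26 (difference 1.38, SE 0.40, limma adjusted p = 0.0266) and Ccr2 at -1.54 (difference 2.41, SE 0.84, limma adjusted p = 0.0495). As labelled, all 4 had opposite signs in the 2 models. Of the other called genes, Retnla (-0.14) and H2-Eb1 (-0.36) also had the opposite sign in C26, and Ptgir (0.64) and Chi3l3 (-1.99) the same sign. An exchange of the C26 labels would reverse every C26 sign, and whether the labels are right was not tested. The calls of Il6ra, Cebpb and Ccr2 were each lost when 1 of several samples was left out.

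The 5 smallest p of the LLC and C26 difference belonged to Stat3, Cfd, C4a, C3 and Map2k6. Stat3 differed by 2.05 (0.25 in LLC and -1.80 in C26; SE 0.32, limma adjusted p = 0.00153), Cfd by 5.60, C4a by 4.88, C3 by 2.91 and Map2k6 by -2.87. In LLC itself none of these 5 passed, so the differences rest mainly on the fold changes of C26. The number of genes that differed ran from 8 to 42 with any 1 of the 12 samples left out. It was lowest, at 8, without C26 tumor-bearing B or without LLC control A, 10 without LLC control B and 11 without LLC control C or tumor-bearing A.

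Against KPP the gene that differed was C7, a component of the membrane attack complex that connective tissue makes. It stood at 116 to 134 in LLC controls and 116 to 151 in LLC tumor-bearing samples (0.05), and at -2.60 in KPP (difference 2.65, SE 0.42, limma adjusted p = 0.00189). Chi3l3 was the widest of the next genes, with -1.95 in LLC and 3.26 in KPP, and did not pass (difference -5.21, SE 1.40, limma adjusted p = 0.0848). It did pass with weights by model (limma adjusted p = 0.0115), with a pseudocount of 20 (0.0383), without KPP control A (0.0403) and without KPP tumor-bearing A (0.0141). In KPP its controls stood at 30.95, 14.9 and 1.00 and its tumor-bearing samples at 30.4, 346 and 81.1, so 1 pair overlapped. As labelled, Ptgir had nearly the same fold change in each model, 0.64 in LLC, 0.64 in C26 and 0.72 in KPP. The differences were -0.00 (SE 0.36) from C26 and -0.08 (SE 0.37) from KPP. Cebpb rose in LLC and stood at 1.34 in KPP, and Irf5 fell in LLC and stood at -1.33 in KPP. Neither difference passed (Cebpb -0.62, SE 0.40, and Irf5 0.08, SE 0.79), and the SE of Irf5 leaves room for a wide one.

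**Figure D5:**
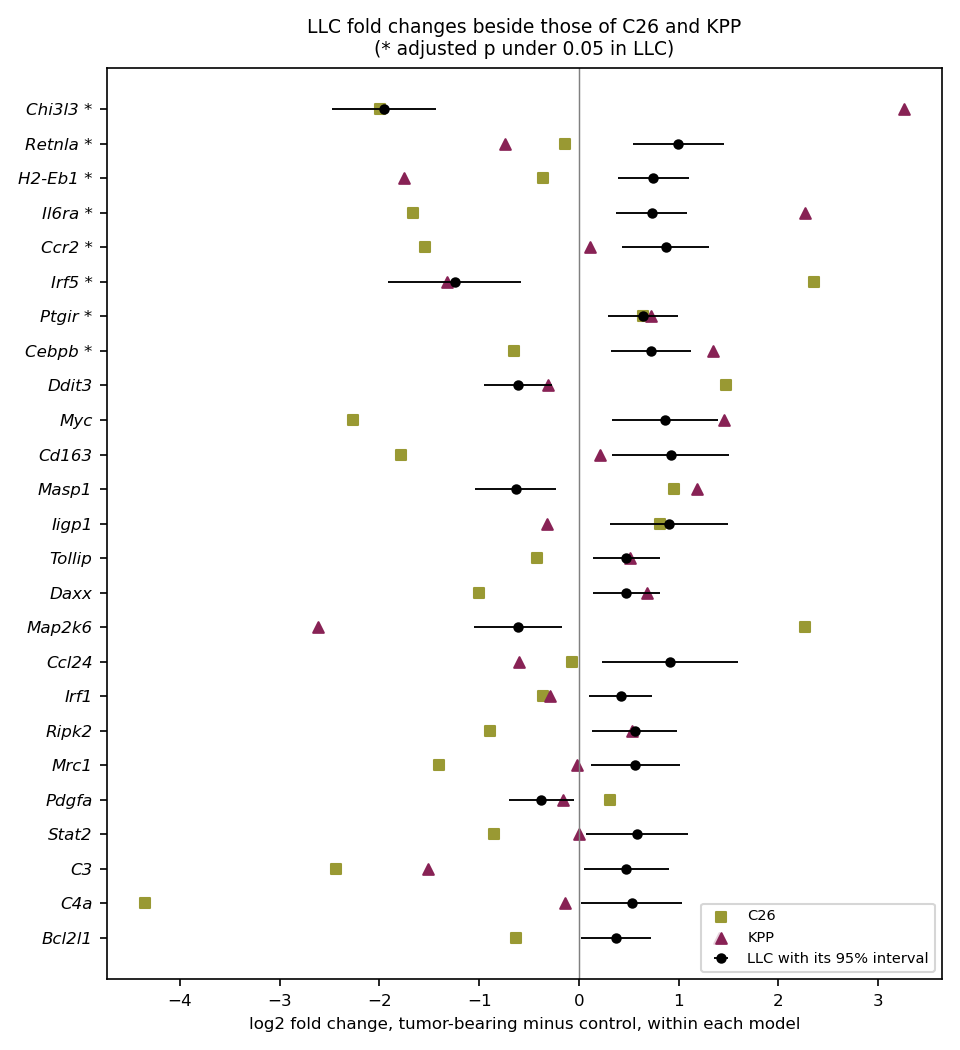
Log2 fold change (tumor-bearing minus control, within each model) of the 25 genes with the smallest p in LLC; black points are LLC with their 95% interval from limma, squares are C26 and triangles KPP. Ptgir lies at almost the same place in all 3, while Irf5 and Il6ra in C26 and Chi3l3 in KPP lie on the other side of 0.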

How the data were processed

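Muscle RNA of 18 samples was run on the nCounter mouse inflammation panel. The values were deposited as a normalized signal (the authors' software and steps: not given in the sources used here). Read from the values, the 6 housekeeping genes share a geometric mean within each model (591.2 in LLC) and no LLC gene value is lower than 20. The LLC negative control probes run down to 1 and are all whole numbers. In C26 and in KPP 19 of 48 negative control values are not whole. Whether a background was subtracted in any model is not stated. Low LLC values lie on steps of 1 count, but the floor hides the rest, so no count test was run. Counts above the floor summed to 40103 to 102841 per sample. No pair of samples held identical values. No batch or cartridge is named in the labels.

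Control probes and housekeeping genes were left out, and genes above 20 in at least 3 of the 6 LLC samples were kept (129 of 248). limma 3.58.1 in R 4.3.3 fitted log2(value + 1) with empirical Bayes moderation (4 residual and 4.05 prior degrees of freedom), two-sided, with Benjamini-Hochberg adjustment over the 129 genes and a threshold of 0.05. Standard errors are those of the moderated fit, and SD is taken over the 3 deposited values. Differences between models were fitted over all 18 samples. The genes named are the 25 with the smallest p, the 5 with the smallest p of each difference, housekeeping genes and list members; which list members are described was chosen after their values were seen. Members and lists were chosen with earlier results of these data known. The letters were not treated as pairs. Of the 254 gene names 248 match RefSeq symbols (GRCm38.p6) and 6 match synonyms. The fit was tested on simulated data.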

Additional observations from a re-analysis of the deposited data

Results flagged for a closer look

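The tumor effect differed between LLC and C26 by limma's test of the difference, on the log2 scale, for Stat3 (2.05), Cfd (5.60), C4a (4.88), C3 (2.91), Map2k6 (-2.87), Irf5 (-3.61), Il6ra (2.39), Cebpb (1.38) and Ccr2 (2.41), and between LLC and KPP for C7 (2.65). Those listed for C26 are the 5 with the smallest p and the genes called in LLC that also differed. In all, 30 of 124 genes (24.2%) differed from C26 and 1 of 127 (0.787%) from KPP. The LLC values that picked the called genes also enter their differences, so no conclusion is drawn from these. The C26 group labels could not be checked from the values, and the size and sign of the differences from C26 rest on them.

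In 7 genes that were above the floor in fewer than 3 samples, all 3 controls were at the floor of 20 and at least 1 tumor-bearing sample was above it. C2, a complement protease of the classical pathway, reached 29.53 in tumor-bearing A and 26.88 in B. The interferon-induced genes Ifit1 and Ifi44 reached 30.92 in B and 23.51 in A. The cytokine Il1b reached 24.15 in C and the matrix protease Mmp9 24.11 in A. Mapkapk5 reached 26.88 in B and Elk1 22.9 in A. Each of the last 6 rests on a single sample near the floor. In 5 genes it was the other way, with all 3 tumor-bearing samples at the floor. Nos2, the inducible nitric oxide synthase, reached 26.06 in control A and 23.41 in B. Control B held Ccl5 at 23.41 and Ly96 and Pla2g4a at 26.92, and control A held Prkcb at 22.72.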

How the results depend on the processing

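Against 8 genes called, 5 passed with no pseudocount. None of 248 passed without a filter (26 with an unadjusted p under 0.05). Of these, 105 were at the floor in all 6 samples, and their lack of spread enters the moderated fit. The parts of this and of the number of tests in the loss were not tested. None of 168 passed with a minimum of 20 in 3 of all 18 samples (26 unadjusted). There was 1 call when scaled without Gapdh and Pgk1, 1 with median centring and 1 with quantile normalization. None passed in limma's fit of all 18 samples (5 unadjusted). With the letters as a replicate block there were 15, among them all 8. The letters are not known to pair samples, and what a letter stands for is not given. Deviations from the group means correlated at 0.245 for A and 0.178 for B, the highest of all pairs across the groups. For C the correlation was -0.00199, and tumor-bearing C correlated best with control B (0.147). Control A and tumor-bearing A also had the most counts (87520 and 102841, against 40103 to 53455 in the rest). With the floor values set to 10, a setting chosen after seeing the data, 0 passed (25 unadjusted). Leaving out 1 sample gave 1 to 14. Median centring moved the median of all genes from 0.07 to -0.08. The LLC and KPP difference had 7 calls with weights by model, 2 with a pseudocount of 20 and 1 to 8 with a sample left out. The LLC and C26 difference had 8 to 42. Both sets of left-out samples were added after seeing the data. Of the 25 named genes none changed direction. C7 in LLC turned to -0.00347 without Gapdh and Pgk1, -0.0942 with median centring and -0.0787 with quantile normalization. With a sample left out C7 ran from -0.0447 to 0.144, Cfd from -0.680 to 0.703 and Ptgs2 from -0.910 to 0.113. Uncalled differences near 0 also turned. That of Ptgir from C26 (-0.00) became 0.00306 with a pseudocount of 20 and ran from -0.104 to 0.0885 with a sample left out. That of Ptgir from KPP (-0.08) ran from -0.367 to 0.207, and that of Irf5 from KPP (0.08) from -0.312 to 0.735. The causes were not tested. Values near the floor rest on 14.9 to 33.2 counts, a counting error of 17.4% to 25.9%.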
